A study of Mus musculus with 34 samples.

Results

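Neural progenitor cells with a heterozygous deletion of the mouse 7qF3 interval were compared with neural progenitor cells that carry the same deletion together with a duplication of the interval. The comparison took in 6 of the 28 RNA-seq libraries of the series, which were chosen by their labels: 3 deletion libraries (replicates 1, 3 and 5) and 3 duplication-deletion libraries (replicates 2, 4 and 5). The deletion cells had the genotype 129Sv df/+ and hold 1 copy of the interval. The duplication-deletion cells had the genotype 129Sv df/dp and hold 2 copies, both on the duplicated chromosome. The 5 control libraries of the same stage (129Sv +/+) also hold 2 copies, 1 on each chromosome, and are given here as context. C57BL/6N is named as the background strain of all of them. The cells were mouse embryonic stem cell (ESC) lines that were grown as epiblast stem cells and then differentiated towards the ventral midbrain for 5 days. A free text label of the duplication-deletion libraries names the deletion alone, so the title and the genotype were used. The labels do not say whether replicates are separate lines or separate cultures, so each p-value measures the spread between these libraries only, which may be technical.

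Deletion and duplication of the matching human region, 16p11.2, are recurrent copy number changes associated with autism and other neurodevelopmental conditions. A gene present in fewer copies usually gives less RNA, which is what a dosage comparison of an interval measures. Many genes in the results below are imprinted: only the copy from the father or only the copy from the mother is active, and the choice is held by DNA methylation at a control region. At several imprinted loci the control region is the promoter of a long noncoding RNA, such as Airn, whose transcription silences neighbouring protein-coding genes on the same chromosome.

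Of 16783 genes tested, 4 differed between the deletion and the duplication-deletion cells at an adjusted p below 0.05 (edgeR quasi-likelihood test, Benjamini-Hochberg adjustment), which is 0.0238% of the genes. The long noncoding RNA Airn was higher in the deletion than in the duplication-deletion cells. The zinc finger gene Zim1 and the uncharacterised genes 2210016F16Rik and 1700001L05Rik were lower, and these 3 are 0.0179% of the genes. For Airn and Zim1 the deletion libraries overlapped the control libraries, and the duplication-deletion libraries stood apart from them. For 2210016F16Rik and 1700001L05Rik the deletion libraries stood apart from the control libraries, and the duplication-deletion libraries overlapped them. None of the 4 lies in the interval: Airn is on chromosome 17, Zim1 on chromosome 7 far from the interval, 2210016F16Rik on chromosome 13 and 1700001L05Rik on chromosome 15. At an unadjusted p below 0.05, 436 genes were lower in the deletion cells (2.6%) and 237 were higher (1.41%). The 3 deletion libraries lay below all 3 duplication-deletion libraries in 607 genes (3.62%) and above all of them in 525 genes (3.13%). The median log2 fold change over all genes tested was 0.02, and the median absolute log2 fold change was 0.27. The number of genes called depended on single libraries. It was 0 without deletion replicate 1, duplication-deletion replicate 2 or duplication-deletion replicate 4. It was 1 without deletion replicate 3, control replicate 4 or control replicate 5, 2 without control replicate 3, and 8 without duplication-deletion replicate 5.

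**Figure D1:**
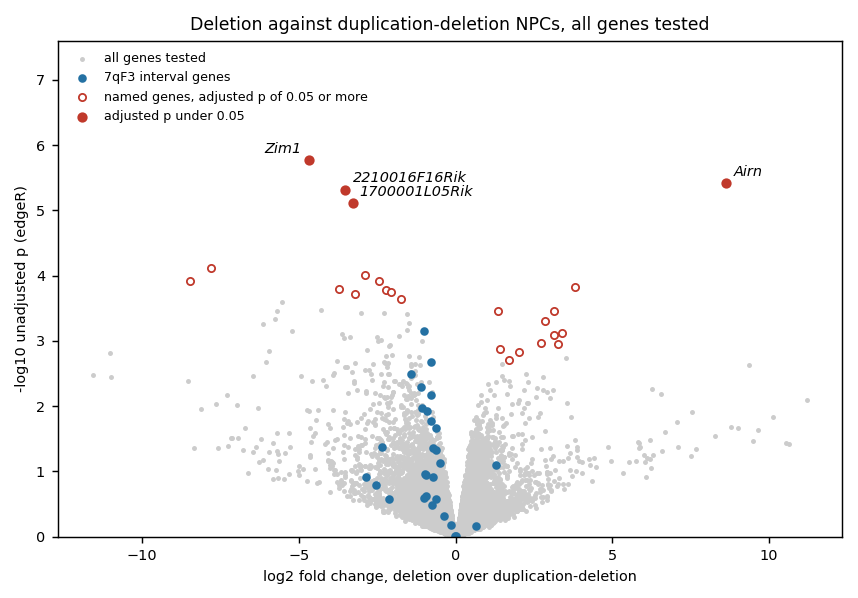
Log2 fold change of the deletion over the duplication-deletion cells (x axis) against −log10 of the unadjusted p (y axis) for the 16783 genes tested, 1 point a gene, with interval genes in blue and the other named genes as open circles. The 4 genes called are Airn on the right and Zim1, 2210016F16Rik and 1700001L05Rik on the left, and the genes of the interval lie mostly left of 0 without reaching the threshold.

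The promoter windows of 6 genes are shown, 3 of them called (Airn, Zim1 and 2210016F16Rik) and 3 from imprinted loci described below. CpG dinucleotides are marked, because imprinting control regions are read through them. Whether any of these windows is part of a control region was not tested. Airn and Plagl1 are paternally expressed genes of chromosomes 17 and 10, Mkrn3 belongs to the Snrpn domain of chromosome 7, Peg3 and Zim1 are neighbours in another domain of that chromosome, and 2210016F16Rik is a gene called in the comparison that is on neither list of imprinted genes. Each window holds the 250 bases before the start of the gene in RefSeq (build GRCm38.p6), 5′ to 3′ on the strand of the gene, with every CpG in capitals. Of the 24 genes named outside the interval, 17 were matched to a RefSeq promoter by symbol.
Airn: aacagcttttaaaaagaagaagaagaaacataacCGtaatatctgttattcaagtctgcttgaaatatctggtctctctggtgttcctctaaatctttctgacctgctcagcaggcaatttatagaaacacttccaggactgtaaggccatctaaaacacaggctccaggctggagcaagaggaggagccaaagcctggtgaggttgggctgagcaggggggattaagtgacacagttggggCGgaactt
Plagl1: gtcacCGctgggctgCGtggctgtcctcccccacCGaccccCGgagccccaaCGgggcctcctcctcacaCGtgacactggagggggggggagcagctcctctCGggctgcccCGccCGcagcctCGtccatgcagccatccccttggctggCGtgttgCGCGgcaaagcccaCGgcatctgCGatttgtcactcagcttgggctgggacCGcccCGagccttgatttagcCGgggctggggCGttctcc
Mkrn3: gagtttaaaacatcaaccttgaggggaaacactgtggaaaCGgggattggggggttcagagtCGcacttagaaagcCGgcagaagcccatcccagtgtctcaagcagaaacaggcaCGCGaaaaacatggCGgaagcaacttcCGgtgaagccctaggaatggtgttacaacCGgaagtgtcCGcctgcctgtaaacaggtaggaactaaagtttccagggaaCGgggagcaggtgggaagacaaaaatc
Peg3: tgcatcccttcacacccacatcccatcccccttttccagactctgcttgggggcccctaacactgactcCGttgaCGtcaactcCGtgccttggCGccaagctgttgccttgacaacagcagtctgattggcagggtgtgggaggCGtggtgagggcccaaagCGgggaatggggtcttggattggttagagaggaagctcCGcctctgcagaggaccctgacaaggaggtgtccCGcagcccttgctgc
Zim1: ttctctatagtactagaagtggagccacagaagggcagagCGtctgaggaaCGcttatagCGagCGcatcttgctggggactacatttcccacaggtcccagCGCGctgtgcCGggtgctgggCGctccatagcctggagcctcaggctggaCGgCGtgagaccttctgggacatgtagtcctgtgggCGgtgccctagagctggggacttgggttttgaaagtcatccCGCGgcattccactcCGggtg
2210016F16Rik: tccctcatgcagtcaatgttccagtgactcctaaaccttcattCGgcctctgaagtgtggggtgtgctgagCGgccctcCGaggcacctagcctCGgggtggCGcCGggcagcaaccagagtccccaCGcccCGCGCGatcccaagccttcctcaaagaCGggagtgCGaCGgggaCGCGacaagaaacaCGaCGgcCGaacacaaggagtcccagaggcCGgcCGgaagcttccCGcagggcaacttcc
The windows lie at chr17:12741061-12741310 (Airn, + strand), chr10:13090582-13090831 (Plagl1, + strand), chr7:62420154-62420403 (Mkrn3, − strand), chr7:6730420-6730669 (Peg3, − strand), chr7:6696433-6696682 (Zim1, − strand) and chr13:58385226-58385475 (2210016F16Rik, − strand). They hold 2 CpG for Airn, 19 for Plagl1, 10 for Mkrn3, 8 for Peg3, 14 for Zim1 and 21 for 2210016F16Rik. Over all 32851 windows of this length the median was 6, with quartiles of 2 and 16. The letters TGCCGC, the methylated hexamer that the imprint maintenance protein ZFP57 binds, were searched on both strands. They contain a CpG, so each match overlaps the capitals. They occur once in the Plagl1 window and once in the Zim1 window, and in 2850 of the 32851 windows (8.68%). A match is a description of the letters and shows no binding.

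The interval itself was described as 33 gene entries from Giyd1 to Sept1, chr7:133832441-134361959 in mm9, a span of 529.5 kb. The breakpoints are not given in the labels. Of the 33 entries 29 were tested, and AI467606, Spn, 4930451I11Rik and Zg16 were below the filter on low counts. The log2 fold change was negative in 26 of the 29, with a median of −0.77, while 52.5% of all genes were positive. None was called by edgeR, 12 had an unadjusted p below 0.05 in the lower direction (2.6% of all genes) and 0 in the higher direction (1.41% of all genes), DESeq2 called 2 of them (Taok2 and Cd2bp2), and limma-voom called 0. Levels are given as CPM, the reads of a gene scaled to the size of its library, and they are not scaled for gene length. Among the 13 genes with a mean of at least 10 CPM in the duplication-deletion cells all 13 were negative, between −1.41 and −0.15.

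The kinase gene Taok2, which acts on the cytoskeleton and MAPK signalling, had 25.3, 23.9 and 38.3 CPM in deletion replicates 1, 3 and 5, against 49.3, 59.4 and 66.8 CPM in duplication-deletion replicates 2, 4 and 5. The groups did not overlap, and the 3 deletion libraries also lay below the control range of 49.1 to 61.5 CPM. Its log2 fold change was −1.0 ± 0.23 (SE), with an adjusted p of 0.409 in edgeR, the lowest in the interval. Cd2bp2, a spliceosome component, had 37.3, 33.5 and 46.3 CPM in the deletion cells, against 64.5, 72.3 and 63.3 CPM in the duplication-deletion cells. These groups did not overlap either, and the log2 fold change was −0.77 ± 0.20. Mapk3, which encodes the kinase ERK1, had 9.12, 6.54 and 17.9 CPM in the deletion cells, against 18.3, 23.1 and 29.1 CPM in the duplication-deletion cells. Its highest deletion library lay just under its lowest duplication-deletion library, and the log2 fold change was −1.07 ± 0.36.

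Ppp4c, the catalytic subunit of protein phosphatase 4, had 18.6, 29.2 and 44.3 CPM in the deletion cells, against 43.6, 54.9 and 76.7 CPM in the duplication-deletion cells. Deletion replicate 5 reached the lowest duplication-deletion library, so the groups overlapped, and the log2 fold change was −0.93 ± 0.32. Aldoa, a glycolytic aldolase, had 61.0, 112 and 102 CPM in the deletion cells, against 104, 156 and 162 CPM in the duplication-deletion cells. It overlapped at one library of each group, with a log2 fold change of −0.61 ± 0.28, and all 3 deletion libraries lay below the control range of 138 to 226 CPM. Maz, a zinc finger transcription factor, had 35.7, 37.2 and 47.9 CPM in the deletion cells, against 41.5, 77.0 and 53.9 CPM in the duplication-deletion cells. Kctd13, an adaptor of the CUL3 ubiquitin ligase, had 5.98, 8.50 and 3.17 CPM in the deletion cells, against 9.28, 12.7 and 7.33 CPM in the duplication-deletion cells. Both genes overlapped between the groups, with log2 fold changes of −0.51 ± 0.27 for Maz and −0.73 ± 0.44 for Kctd13.

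The other interval genes with an unadjusted p below 0.05 were Giyd1, Ino80e, Cdipt, Mvp, 2900092E17Rik, Kif22 and Tbc1d10b. Giyd1, a structure-specific nuclease gene, had 4.41, 3.65 and 4.27 CPM in the deletion cells, against 8.95, 11.7 and 5.76 CPM in the duplication-deletion cells. Its deletion libraries lay within a narrow band below all others, with a log2 fold change of −1.10 ± 0.33. In all, 7 interval genes had every deletion library below every duplication-deletion library, as 3.62% of all genes did: Giyd1, Mapk3, Fam57b, Ino80e, Taok2, 2900092E17Rik and Cd2bp2. The septin gene Sept1 was the single entry with the order turned round (3.13% of all genes), at 0.968, 1.20 and 2.70 CPM in the deletion cells, against 0.446, 0.665 and 0.904 CPM in the duplication-deletion cells. In none of the 29 genes did the duplication-deletion libraries stand apart from the 5 control libraries (0 of 29), while the deletion libraries stood apart from them in 9, below them except for Mylpf, where they lay above. The share of all genes that stood apart from the control libraries was not computed, so these counts only describe the interval genes.

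Expressed per library as the median interval gene in percent of the duplication-deletion mean, the deletion libraries reached 49.6%, 50.0% and 73.0%, against 73.2%, 108% and 114% in the duplication-deletion libraries. The means were 57.5% ± 13.4 in the deletion cells and 98.6% ± 22.2 in the duplication-deletion cells (SD, n = 3 each), a difference of −41.0 percentage points. The groups did not overlap, but the highest deletion library and the lowest duplication-deletion library were nearly equal. An exact permutation test gave a two-sided p of 0.1, the smallest that 3 against 3 libraries allow. The control libraries lay between 78.2% and 98.3%. Within 1 Mb before the interval the 18 genes tested had a median log2 fold change of 0.06, and within 1 Mb after it the 48 genes tested had a median of 0.10.

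**Figure D2:**
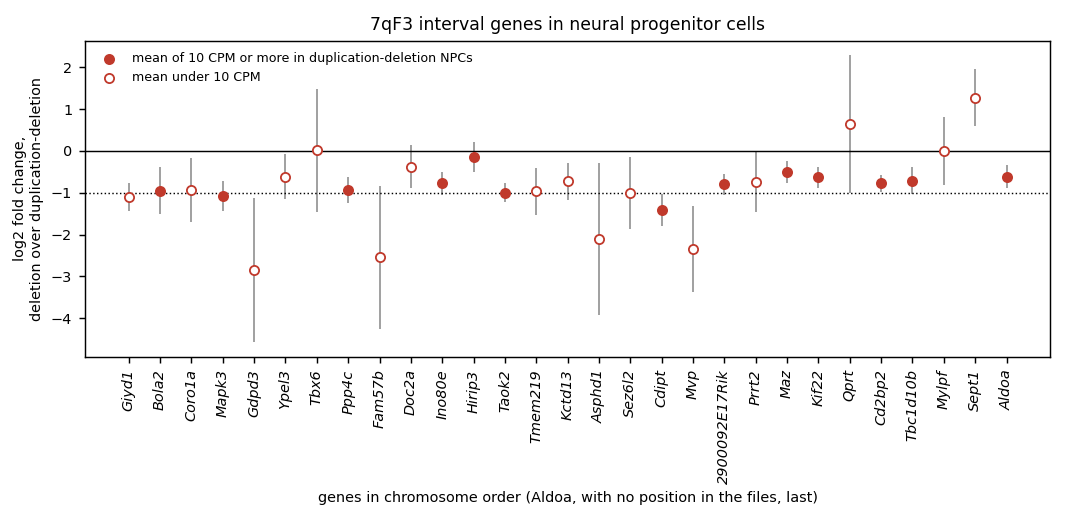
Log2 fold change of the deletion over the duplication-deletion cells for each tested gene of the 7qF3 interval, in chromosome order with Aldoa last, and its standard error as a bar. Filled points are genes with a mean of at least 10 CPM in the duplication-deletion cells, and the dotted line marks −1, the value for 1 copy against 2. Of the 29 genes 26 lie below 0 and their median is −0.77.

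Many of the named genes outside the interval are imprinted. Of the 12 named genes that were higher in the deletion cells 8 are on the lists of imprinted genes used here, and of the 12 that were lower 2 are. Among 30 paternally expressed genes tested, 1 was called (Airn), 14 had an unadjusted p below 0.05 in the higher direction (1.41% of all genes) and 1, Kcnq1ot1, in the lower direction (2.6%). The median log2 fold change of these 30 genes was 0.66 and ranged from 0.36 to 0.86 over the 20 alternative fits. Among 24 maternally expressed genes tested, 1 was called (Zim1), 3 had an unadjusted p below 0.05 in the higher direction and 5 in the lower direction, with a median of −0.08 that turned positive in 4 of the 20 alternatives. Over both lists the deletion libraries did not overlap the duplication-deletion libraries in 24 of 54 genes, 16 higher (3.13% of all genes) and 8 lower (3.62% of all genes). The median absolute log2 fold change was 0.91, against 0.27 over all genes tested. These lists were chosen with results of these data known.

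Airn starts inside the gene of the receptor Igf2r, runs antisense to it and silences the paternal copy of Igf2r in cis. Airn had 2.67, 6.87 and 2.04 CPM in deletion replicates 1, 3 and 5, against 0.0165, 0 and 0 CPM in duplication-deletion replicates 2, 4 and 5. The duplication-deletion libraries thus held 1 read in all, against 534 in the deletion libraries, and the 5 control libraries held between 0.784 and 4.71 CPM, so every duplication-deletion library lay below every control library. The ratio of the summed levels was 558, with an exact 95% interval of 99.8 to 22092 that covers counting error only. The fitted log2 fold change was 8.64 ± 1.12 (SE), with an adjusted p of 0.0269 in edgeR. For the duplication-deletion over the control cells it was −8.08 ± 1.08 (adjusted p 0.0482 in edgeR). Igf2r, which clears the growth factor IGF2 from the cell surface, had 79.6, 120 and 55.9 CPM in the deletion cells, against 203, 251 and 300 CPM in the duplication-deletion cells. Its groups did not overlap and the order was opposite to that of Airn, with a log2 fold change of −1.56 ± 0.35 and an adjusted p of 0.409, which is not called. The control libraries ranged from 145 to 328 CPM, so for Igf2r the deletion libraries lay below the control range. Airn and Igf2r overlap on opposite strands, and whether the counting used strand is not given in the sources used here, so how reads were divided between them is uncertain.

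Plagl1, a zinc finger transcription factor expressed from the paternal copy, had 82.6, 218 and 171 CPM in the deletion cells, against 14.3, 17.2 and 2.05 CPM in the duplication-deletion cells. All 3 duplication-deletion libraries also lay below the control range of 72.7 to 200 CPM. The log2 fold change was 3.80 ± 0.70 with an adjusted p of 0.244. At Gnas, the antisense noncoding RNA Nespas had 17.7, 21.2 and 24.5 CPM in the deletion cells, against 7.23, 11.2 and 6.52 CPM in the duplication-deletion cells. The deletion libraries lay above the control range of 9.24 to 12.9 CPM, and duplication-deletion replicates 2 and 5 lay below it. The log2 fold change was 1.34 ± 0.28 with an adjusted p of 0.292. Nespas overlaps transcripts of the other strand, which leaves its reads uncertain in the same way. Nnat, a small membrane protein of the endoplasmic reticulum, had 148, 65.7 and 81.2 CPM in the deletion cells, against 29.9, 47.6 and 6.57 CPM in the duplication-deletion cells. Mest, an alpha/beta hydrolase, had 1590, 2418 and 1623 CPM in the deletion cells, against 1228, 1196 and 1073 CPM in the duplication-deletion cells. Neither overlapped between the groups and neither was called, with log2 fold changes of 1.81 ± 0.59 for Nnat and 0.69 ± 0.25 for Mest.

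The Kcnq1ot1 domain ran the other way from most paternally expressed genes. Kcnq1ot1, a long noncoding RNA that silences the growth inhibitors Cdkn1c and Phlda2 on the paternal chromosome, had 340, 413 and 237 CPM in the deletion cells, against 1275, 951 and 1070 CPM in the duplication-deletion cells. All 3 duplication-deletion libraries lay above the control range of 330 to 798 CPM, and the log2 fold change was −1.73 ± 0.34 with an adjusted p of 0.277. Cdkn1c, a maternally expressed inhibitor of cyclin-dependent kinases, had 182, 180 and 91.1 CPM in the deletion cells, against 49.5, 35.4 and 55.4 CPM in the duplication-deletion cells. The duplication-deletion libraries were below the control range of 136 to 529 CPM, and the log2 fold change was 1.69 ± 0.48 (adjusted p 0.668). Phlda2, a maternally expressed restrainer of placental growth, had 1.90, 2.64 and 1.37 CPM in the deletion cells, against 0.264, 0.166 and 0.0476 CPM in the duplication-deletion cells. The groups did not overlap, with a log2 fold change of 3.54 ± 0.90 (adjusted p 0.577). Kcnq1ot1 is antisense to Kcnq1, whose level was at most 0.509 CPM in any of the 6 libraries. Klf14, a maternally expressed transcription factor on another chromosome, was lower in the deletion cells, at 0.663, 0.351 and 0.548 CPM against 3.19, 4.18 and 1.38 CPM in the duplication-deletion cells, with a log2 fold change of −2.48 ± 0.58 and no call.

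Genes of the Snrpn domain of chromosome 7, the region whose human counterpart is lost in Prader-Willi syndrome, were lower in all 3 duplication-deletion libraries and close to 0 in duplication-deletion replicate 5. Snurf, the upstream reading frame of the Snrpn transcript, had 99.1, 71.6 and 105 CPM in the deletion cells, against 17.3, 12.6 and 0.761 CPM in the duplication-deletion cells. Mkrn3, a ubiquitin ligase that restrains the onset of puberty, had 35.3, 36.2 and 26.5 CPM in the deletion cells, against 5.73, 4.84 and 0.333 CPM in the duplication-deletion cells. Ndn (necdin), which restrains proliferation of neural cells, had 69.3, 55.1 and 44.6 CPM in the deletion cells, against 6.67, 10.4 and 0.238 CPM in the duplication-deletion cells. No library of one group reached the other in any of these genes, and every duplication-deletion library lay below every control library. Peg12, a member of the FRAT family of GSK3-binding proteins, had 32.1, 23.1 and 38.1 CPM in the deletion cells, against 5.98, 2.61 and 0.143 CPM in the duplication-deletion cells. Magel2, a regulator of ubiquitin ligases in endosomal recycling, had 21.1, 21.2 and 12.3 CPM in the deletion cells, against 3.98, 4.71 and 0.0952 CPM in the duplication-deletion cells. In these genes too replicate 5 was the lowest, and the groups did not overlap. With all 11 libraries in the fit none of the domain was called: the log2 fold change was 3.15 ± 0.71 for Snurf (adjusted p 0.42), 3.14 ± 0.64 for Mkrn3 (0.292), 3.27 ± 0.77 for Ndn (0.455), 3.38 ± 0.76 for Peg12 (0.419) and 2.61 ± 0.77 for Magel2 (0.717). Without duplication-deletion replicate 5 the log2 fold changes were smaller but 4 were called by edgeR, with 2.60 for Snurf (adjusted p 0.0044), 2.61 for Mkrn3 (0.0044), 2.70 for Ndn (0.0044) and 2.84 for Peg12 (0.0414). Without all 3 libraries numbered 5, Mkrn3 (adjusted p 0.00832), Ndn (0.00832) and Snurf (0.00848) were the only genes called.

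**Figure D3:**
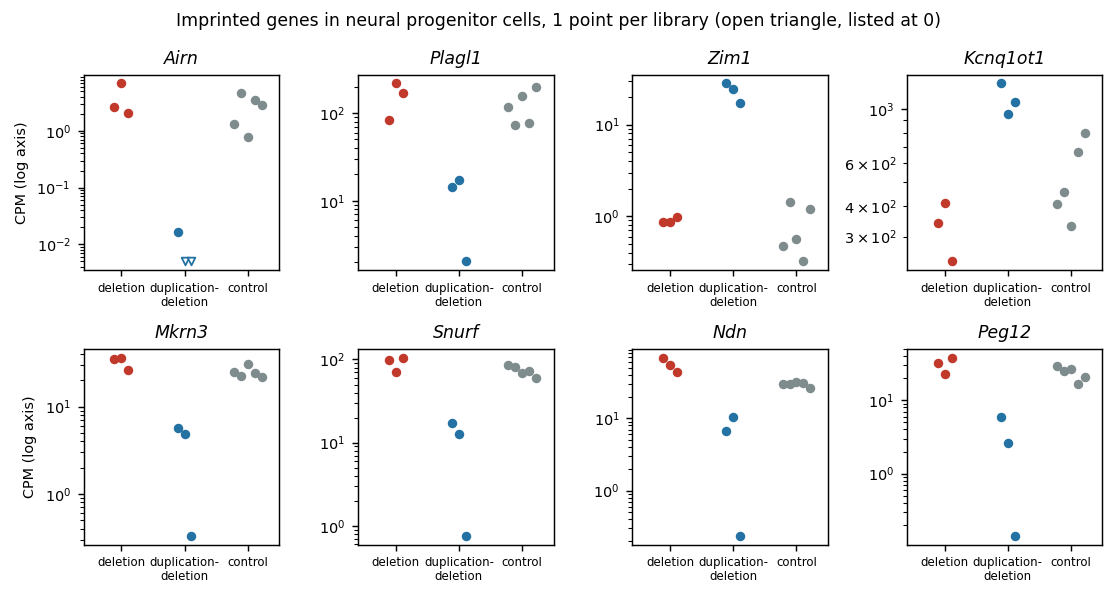
Level in CPM (log axis) of 8 of the named imprinted genes in each deletion, duplication-deletion and control library. The duplication-deletion libraries lie lowest for Airn, Plagl1 and the Snrpn domain and highest for Zim1 and Kcnq1ot1, and duplication-deletion replicate 5 is close to 0 for Snurf, Mkrn3 and Ndn.

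The library lowest in the Snrpn domain was also lowest in RNA of the Y chromosome. Ddx3y, a Y-linked RNA helicase, had 53.4, 62.6 and 61.7 CPM in the deletion cells, against 16.6, 8.72 and 1.19 CPM in the duplication-deletion cells, and 34.7 to 75.2 CPM in the control cells. The groups did not overlap, and the log2 fold change was 2.73 ± 0.64 with an adjusted p of 0.455. Uty, a Y-linked histone demethylase, had 78.3, 57.6 and 53.7 CPM in the deletion cells, against 61.0, 32.4 and 2.57 CPM in the duplication-deletion cells. Here the groups overlapped, with replicate 2 within the deletion range and replicate 5 far below it. Kdm5d, another Y-linked demethylase, had 0 reads in all 3 deletion libraries, against 16.2, 6.69 and 0.285 CPM in the duplication-deletion cells, which is at least 430-fold lower in the deletion cells at a floor of 3 counts over the group. In the control cells Kdm5d was between 0 and 1.49 CPM. The summed level of 4 Y-linked genes was 168 to 206 CPM in the deletion cells, 7.42 to 164 CPM in the duplication-deletion cells and 130 to 235 CPM in the control cells. These genes have close X-linked relatives, so the division of reads between the copies is uncertain. The part of the Y-linked difference in the other results was not tested. The fit without duplication-deletion replicate 5 does not remove that difference, since the log2 fold change of Ddx3y was still 2.21 there.

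In the Peg3 domain the maternally and the paternally expressed genes lay in opposite directions. Zim1, a zinc finger gene expressed from the maternal copy, had 0.860, 0.867 and 0.978 CPM in the deletion cells, against 28.1, 24.5 and 17.4 CPM in the duplication-deletion cells. The control libraries, at 0.322 to 1.43 CPM, were as low as the deletion libraries, so the duplication-deletion libraries stood apart from both. Against the duplication-deletion cells, Zim1 was lower in the deletion cells, with a log2 fold change of −4.69 ± 0.56 and an adjusted p of 0.0269. It was called in 13 of 20 alternative fits, more than any other gene named here. For the duplication-deletion over the control cells the log2 fold change of Zim1 was 4.89 ± 0.46 (adjusted p 0.00186 in edgeR). Peg3, a zinc finger gene expressed from the paternal copy, had 1167, 1825 and 1080 CPM in the deletion cells, against 584, 710 and 719 CPM in the duplication-deletion cells. Usp29, a deubiquitinase gene that is transcribed away from Peg3 out of the same control region, had 170, 179 and 84.8 CPM in the deletion cells, against 68.8, 64.4 and 28.6 CPM in the duplication-deletion cells. Neither gene overlapped between the groups, and neither was called, with log2 fold changes of 1.02 ± 0.32 for Peg3 and 1.42 ± 0.35 for Usp29.

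The other genes called are not on the imprinted lists. 2210016F16Rik had 0.573, 0.599 and 1.13 CPM in the deletion cells, against 5.20, 9.39 and 11.7 CPM in the duplication-deletion cells. 1700001L05Rik had 0.627, 0.330 and 0.626 CPM in the deletion cells, against 6.32, 5.27 and 3.85 CPM in the duplication-deletion cells. In both the deletion libraries lay below every control library, since those held 3.42 to 6.63 CPM of 2210016F16Rik and 2.71 to 5.01 CPM of 1700001L05Rik. Against the duplication-deletion cells, 2210016F16Rik was lower by 3.52 ± 0.46 on the log2 scale in the deletion cells (adjusted p 0.0269). 1700001L05Rik was lower by 3.29 ± 0.45 (adjusted p 0.0326). They were called in 9 and 7 of the 20 alternative fits, and Airn in 10.

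The other named genes that were higher in the deletion cells without a call were the F-box gene Fbxw17, the zinc finger gene Zfp167 and Fgfbp3, a binding protein that releases fibroblast growth factors. Fgfbp3 had 31.3, 26.2 and 44.1 CPM in the deletion cells, against 14.4, 10.8 and 5.76 CPM in the duplication-deletion cells, with a log2 fold change of 1.71 ± 0.44. Fbxw17 had 2.83, 3.39 and 4.38 CPM in the deletion cells, against 0.413, 0.813 and 0.190 CPM in the duplication-deletion cells (2.86 ± 0.62). Zfp167 had 3.94, 3.30 and 3.33 CPM in the deletion cells, against 1.30, 0.979 and 0.286 CPM in the duplication-deletion cells (2.01 ± 0.50). Replicate 5 was the lowest duplication-deletion library in all of them. Among the lower ones, the axonemal dynein gene Dnahc8 had 0.842, 0.351 and 0.744 CPM in the deletion cells, against 3.91, 7.10 and 14.9 CPM in the duplication-deletion cells (−3.74 ± 0.70). The transcript AK029792 had 2.58, 1.42 and 1.21 CPM in the deletion cells, against 7.64, 9.68 and 7.04 CPM in the duplication-deletion cells (−2.22 ± 0.42). By the rule that chose them, none of these genes overlapped between the groups.

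Several genes that are otherwise typical of germ cells were lower in the deletion cells, some of them with few or no reads there. Rbm46, an RNA-binding protein of meiotic germ cells, had 0, 0 and 0.157 CPM in the deletion cells, against 5.89, 3.23 and 17.3 CPM in the duplication-deletion cells. That is 4 reads against 896, and the fitted log2 fold change was −7.82 ± 1.35 with an adjusted p of 0.244. Fmr1nb, an X-linked gene expressed in testis, had 2 reads in the deletion cells against 643 in the duplication-deletion cells, a ratio of 0.00325 with an exact 95% interval of 0.000393 to 0.0118. The deletion libraries lay below every control library, since those held 1.21 to 6.08 CPM of Rbm46 and 1.23 to 11 CPM of Fmr1nb. Stag3, the meiotic cohesin subunit, had 3.51, 5.14 and 1.64 CPM in the deletion cells, against 15.6, 14.1 and 26.2 CPM in the duplication-deletion cells. Tcfl5, a transcription factor of spermatocytes, had 5.70, 5.51 and 5.05 CPM in the deletion cells, against 21.6, 11.7 and 37.1 CPM in the duplication-deletion cells. The log2 fold changes were −2.43 ± 0.45 for Stag3 and −2.11 ± 0.50 for Tcfl5, without a call. Sox30 held 1 read in the deletion cells against 88 in the duplication-deletion cells, a ratio of 0.0119 (exact 95% interval 0.000297 to 0.0679). Dnajb3 held 2 reads in the deletion cells against 134 in the duplication-deletion cells, a ratio of 0.0156 (0.00187 to 0.0575). All 10 tested genes of a germline list put together after the values were seen had negative log2 fold changes, with a median of −2.27 and 6 with an unadjusted p below 0.05, where 2.6% of all genes did. The other entries of the 20 on the list were below the filter on low counts, which a gene can pass through 1 group alone. Dazl was at 0 in all duplication-deletion libraries but not in all deletion libraries, and Stk31 the other way round. The summed level overlapped, at 29.7 to 63.6 CPM in the deletion cells, against 60.3 to 176 CPM in the duplication-deletion cells. Chosen in this way, the list describes these libraries and supports nothing beyond them.

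The clustered protocadherins, cell adhesion proteins that give neurons individual surface identities, differed in level at the gamma cluster for some isoforms. Of 22 Pcdhg genes tested 0 were called by edgeR. An unadjusted p below 0.05 was reached by 12 in the lower and 0 in the higher direction, where 2.6% and 1.41% of all genes did. The median log2 fold change was −1.24, with 5 of 22 positive (52.5% of all genes). The summed level of the cluster overlapped, at 131 to 276 CPM in the deletion cells, against 157 to 381 CPM in the duplication-deletion cells. Pcdhgb4 had 2.37, 1.49 and 0.939 CPM in the deletion cells, against 7.28, 16.6 and 12.4 CPM in the duplication-deletion cells, with a log2 fold change of −2.91 ± 0.52 and an adjusted p of 0.244. The control libraries held 2.12 to 6.88 CPM of Pcdhgb4, so the duplication-deletion libraries lay above them. Pcdhgb2 had 3.51, 4.21 and 2.82 CPM in the deletion cells, against 8.58, 20.2 and 15.3 CPM in the duplication-deletion cells, and here both groups lay below the control range of 24.1 to 61.0 CPM. Pcdhga7 had 2.96, 2.58 and 0.978 CPM in the deletion cells, against 6.36, 16.5 and 9.28 CPM in the duplication-deletion cells. The groups did not overlap in any of these genes, but their place relative to the control cells differed from gene to gene. The beta cluster had a median of −0.65 over 21 genes with 1 unadjusted p below 0.05, the alpha cluster had −1.53 over 14 genes with 2, and the non-clustered protocadherins had −0.46 over 11 genes with 0. The alpha and the gamma genes each share constant exons within their cluster, so the division of reads among their isoforms is uncertain.

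The labelled cell type was checked against its markers. Nes, an intermediate filament of neural progenitors, had 918, 809 and 615 CPM in the deletion cells, against 704, 679 and 394 CPM in the duplication-deletion cells. Sox2, a transcription factor of neural progenitors, had 129, 119 and 116 CPM in the deletion cells, against 90.1, 96.2 and 45.3 CPM in the duplication-deletion cells. Both were present in every library, lowest in duplication-deletion replicate 5. The 16 tested neural progenitor genes had a median log2 fold change of 0.43, with 14 of them positive (52.5% of all genes). Only 1 (Sox2) had an unadjusted p below 0.05 in the higher direction (1.41% of all genes). Without duplication-deletion replicate 5 the median was 0.21, with 0 at that level, where 199 of all 17291 genes were in the higher direction. The summed level overlapped, at 2484 to 3233 CPM in the deletion cells, against 2535 to 3333 CPM in the duplication-deletion cells. The ventral midbrain floor plate list (19 genes, among them the transcription factors Lmx1a and Foxa2 and the signal Shh) had a median of 0.00, and its sign turned negative in 9 of the 20 alternatives. Its summed level was 1047 to 1849 CPM in the deletion cells, against 589 to 2928 CPM in the duplication-deletion cells, so the spread between duplication-deletion libraries was wider than the difference. In bulk RNA, fewer cells of a type and less RNA of its markers per cell cannot be told apart.

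Markers of the forebrain lay higher in the deletion cells. Of 19 tested, 9 had an unadjusted p below 0.05 in the higher direction (1.41% of all genes) and 0 in the lower direction (2.6% of all genes), the median log2 fold change was 2.18 (1.25 to 2.73 over the alternatives), and none was called by edgeR. The summed level was 85.0 to 219 CPM in the deletion cells, 39.0 to 59.9 CPM in the duplication-deletion cells and 35.4 to 56.1 CPM in the control cells, and 1 marker, Hesx1, was at 0 in all 3 duplication-deletion libraries. Fezf1, a forebrain and olfactory transcription factor, had 8.03, 21.8 and 16.1 CPM in the deletion cells, against 3.35, 4.56 and 2.19 CPM in the duplication-deletion cells. Dlx1, a homeobox factor of ventral forebrain interneurons, had 35.1, 11.8 and 5.71 CPM in the deletion cells, against 3.00, 3.53 and 0.381 CPM in the duplication-deletion cells. Neither overlapped between the groups. The log2 fold changes were 2.18 ± 0.65 for Fezf1 and 2.91 ± 0.88 for Dlx1. Six3, an eye field factor, had 0.627, 17.2 and 0.900 CPM in the deletion cells, against 0.429, 0.333 and 0.571 CPM in the duplication-deletion cells, so its high value came from deletion replicate 3 alone. Without duplication-deletion replicate 5, 6 forebrain genes had an unadjusted p below 0.05 in the higher direction, and without the 3 libraries numbered 5, 7 did. Over all genes 199 of 17291 and 206 of 17099 did in these fits. A higher sum was not particular to the forebrain list. The hindbrain and spinal cord genes summed to 27.3 to 35.6 CPM in the deletion cells, against 13.5 to 21.4 CPM in the duplication-deletion cells. Of 11 tested, 2 had an unadjusted p below 0.05 in the higher direction and 0 in the lower direction. Their median was 0.04 and changed sign in 8 of the 20 alternatives.

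Genes of the midbrain-hindbrain boundary lay in both directions, 4 of 12 positive (52.5% of all genes) and 8 negative, and En1 and En2 had the smallest p. En1, an engrailed factor needed for midbrain dopaminergic neurons, had 0.681, 1.24 and 2.66 CPM in the deletion cells, against 4.42, 8.89 and 7.09 CPM in the duplication-deletion cells. En2, its paralog, had 0.340, 0.103 and 2.19 CPM in the deletion cells, against 9.49, 6.10 and 2.33 CPM in the duplication-deletion cells. The deletion libraries lay below both other groups, with deletion replicate 5 just under duplication-deletion replicate 5 for En2. Over the 12 tested genes of the boundary 4 had an unadjusted p below 0.05 in the lower direction (En1, En2, Pax5 and Cnpy1), where 2.6% of all genes did, and 0 in the higher direction. The median was −0.43. Without duplication-deletion replicate 5 the median was −0.03, with 3 genes at an unadjusted p below 0.05 in the higher direction and 4 in the lower direction. Over all 17291 genes of that fit these counts were 199 and 259. Their summed level overlapped, at 23.3 to 50.2 CPM in the deletion cells, 36.3 to 63.9 CPM in the duplication-deletion cells and 53 to 103 CPM in the control cells.

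Among lists of markers of other cell types outside the nervous system, the summed levels of neural crest genes and of endothelial and blood genes did not overlap between the groups. Those of the mesoderm, endoderm, surface ectoderm, and fibroblast and matrix lists did. All 16 tested neural crest genes had negative log2 fold changes, with a median of −1.38 and 6 at an unadjusted p below 0.05, where 2.6% of all genes were lower at that level and 52.5% of all genes were positive. Their summed level was 43.8 to 72.0 CPM in the deletion cells, 93.0 to 176 CPM in the duplication-deletion cells and 90.6 to 158 CPM in the control cells. No neural crest marker of the list was at 0 in all libraries of a group. Sox10, the defining factor of migrating crest, had 0.161, 0.227 and 0.117 CPM in the deletion cells, against 4.16, 1.76 and 0.523 CPM in the duplication-deletion cells, a log2 fold change of −3.64 ± 0.83 with an adjusted p of 0.42. Foxd3, an early crest factor, held 3 reads in the deletion cells against 101 in the duplication-deletion cells, a ratio of 0.0311 (exact 95% interval 0.0063 to 0.0934). Of 11 tested endothelial and blood genes 3 had an unadjusted p below 0.05 in the lower direction (2.6% of all genes), all of them embryonic globins. The median was −2.22, with 3 of the 11 positive. Hbb-bh1 had 0.108, 0.0826 and 0.352 CPM in the deletion cells, against 23.6, 8.17 and 4.14 CPM in the duplication-deletion cells. Hba-x had 0.394, 0.289 and 2.04 CPM in the deletion cells, against 58.4, 22.8 and 16.7 CPM in the duplication-deletion cells. For both globins the duplication-deletion libraries lay above the control libraries, whose highest were 3.57 CPM for Hbb-bh1 and 6.32 CPM for Hba-x. The summed level of the list was 9.43 to 17.0 CPM in the deletion cells, 48.8 to 111 CPM in the duplication-deletion cells and 9.27 to 44.1 CPM in the control cells. Ptprc, Cx3cr1, Aif1 and Tyrobp, markers of white blood cells and microglia, were at 0 in the deletion cells, and Tyrobp was at 0 in the duplication-deletion cells too. The fibroblast and matrix list summed to 707 to 1574 CPM in the deletion cells, against 1105 to 2573 CPM in the duplication-deletion cells. Within it the collagen gene Col5a2, the one with the smallest p, had 4.48, 1.09 and 0.822 CPM in the deletion cells, against 44.3, 15.8 and 7.28 CPM in the duplication-deletion cells, and both groups lay below the control range of 74.7 to 210 CPM. The part of these cell types in the differences of other genes was not tested.

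**Figure D4:**
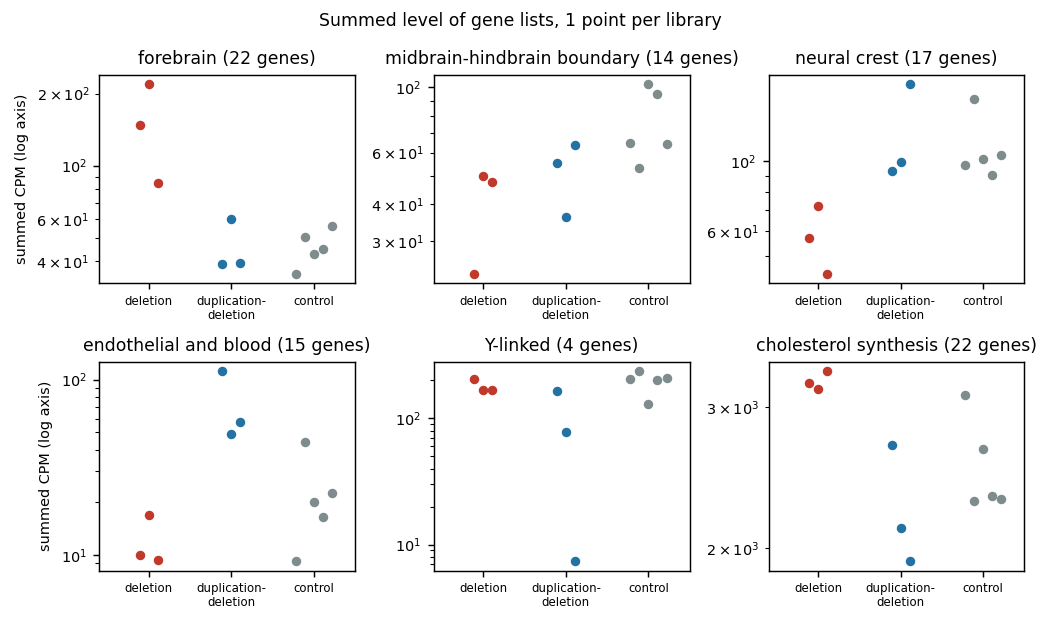
Summed level in CPM (log axis) of 6 gene lists in each deletion, duplication-deletion and control library, 1 point a library. The deletion libraries lie above the duplication-deletion libraries for forebrain and cholesterol synthesis genes and below them for neural crest and for endothelial and blood genes, and duplication-deletion replicate 5 is lowest for the Y-linked genes.

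The ESC and neuron libraries allowed a test of whether these differences depended on the stage, in a fit of all 28 libraries. The difference between deletion and duplication-deletion cells differed between NPCs and ESCs in 3 of 19996 genes tested (0.015%): Zim1, 2210016F16Rik and Gm1564. Zim1 had 1.30, 1.38 and 1.68 CPM in deletion ESCs, against 1.22, 2.17 and 1.21 CPM in duplication-deletion ESCs. The ESC groups overlapped, and the effect in NPCs minus that in ESCs was −4.60 ± 0.67 on the log2 scale with an adjusted p of 0.00769 in edgeR. 2210016F16Rik had 25.8, 24.3 and 16.5 CPM in deletion ESCs, against 22.1, 37.6 and 25.6 CPM in duplication-deletion ESCs, and the effects differed by −3.19 ± 0.50 (adjusted p 0.0143). Gm1564 had 1.16, 0.0199 and 0.766 CPM in deletion NPCs, against 20.3, 11 and 71.5 CPM in duplication-deletion NPCs. In ESCs it had 85.6, 101 and 87.6 CPM with the deletion, against 48.8, 86.5 and 49.2 CPM with the duplication-deletion. The effects for Gm1564 differed by −6.29 ± 1.10 (adjusted p 0.0437), a call that was lost without deletion replicate 5 or without duplication-deletion replicate 5. The difference between NPCs and neurons was called for 0% of the genes by edgeR, and DESeq2 called 27. Of the 19996 genes 1169 had an unadjusted p below 0.05 in edgeR, and 688 did for the difference from ESCs. At that threshold a share of about 0.05 is marked where no gene differs.

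Neurons were represented by 2 deletion libraries (replicates 1 and 3) and 2 duplication-deletion libraries (replicates 2 and 4). Airn had 4.18 and 2.01 CPM in deletion neurons, against 0 and 0 CPM in duplication-deletion neurons. Zim1 had 3.60 and 2.93 CPM in deletion neurons, against 27.6 and 46.6 CPM in duplication-deletion neurons. Snurf had 229 and 113 CPM in deletion neurons, against 21.7 and 12.1 CPM in duplication-deletion neurons. In each of these genes the order of the neuron groups was that of the NPC groups, without overlap. Mkrn3 had 43.5 and 26.3 CPM in deletion neurons, against 5.79 and 2.69 CPM in duplication-deletion neurons. Ddx3y had 117 and 81.7 CPM in deletion neurons, against 14.5 and 8.76 CPM in duplication-deletion neurons. 2210016F16Rik had 0.631 and 0.500 CPM in deletion neurons, against 6.92 and 10.6 CPM in duplication-deletion neurons. None of these overlapped in neurons either. The other called gene, 1700001L05Rik, did overlap, at 2.31 and 0.200 CPM in deletion neurons, against 1.78 and 4.84 CPM in duplication-deletion neurons. It overlapped in ESCs as well, and Dnahc8 overlapped in neurons. The share of all genes without overlap was computed for neither neurons nor ESCs. With 2 against 2 libraries a lack of overlap is easily reached, so it only describes these genes. Airn was also without overlap in ESCs, at 0.780, 0.337 and 0.187 CPM in deletion ESCs, against 0.116, 0 and 0.0805 CPM in duplication-deletion ESCs, with control ESCs from 0 to 0.697 CPM. Snurf did not overlap in ESCs either, at 106, 117 and 58.2 CPM in deletion ESCs, against 17.8, 21.4 and 20.8 CPM in duplication-deletion ESCs, while Mkrn3 and Ddx3y overlapped there. The interval genes stood at 35.6%, 48.0% and 56.7% of the duplication-deletion mean in deletion ESCs, and at 40.7% and 66.1% in deletion neurons.

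**Figure D5:**
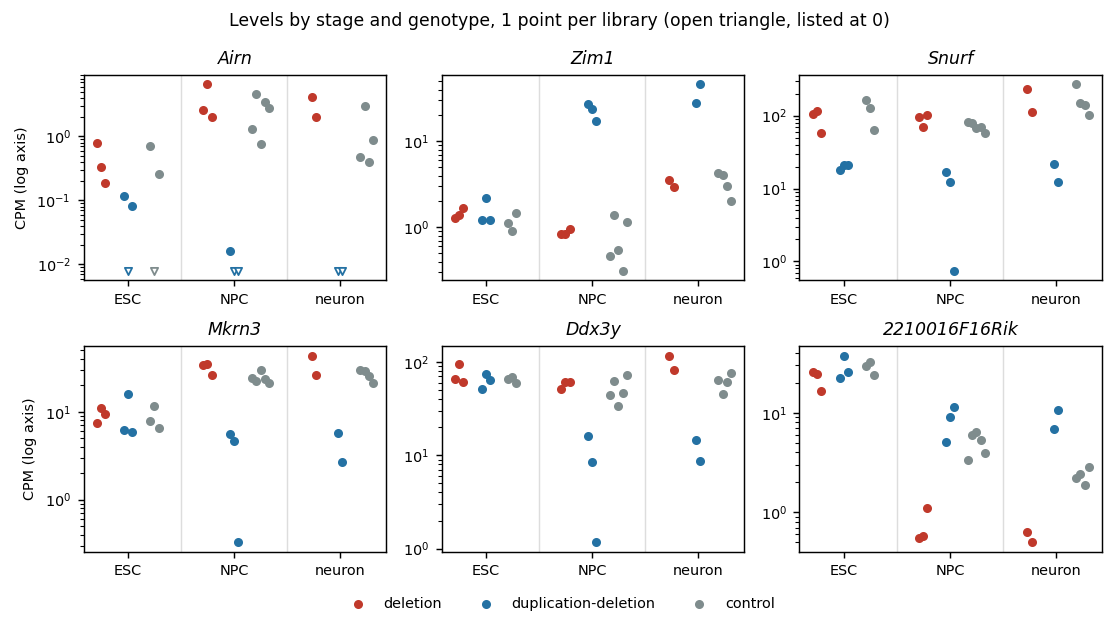
Level in CPM (log axis) of Airn, Zim1, Snurf, Mkrn3, Ddx3y and 2210016F16Rik in deletion, duplication-deletion and control libraries of ESCs, NPCs and neurons, 1 point a library. Zim1 is about as low in both mutant groups of ESCs and splits at the NPC stage, whereas Snurf is lower in the duplication-deletion libraries at each stage.

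The total count was 24053970 to 59794312 per deletion library, 19311982 to 72042936 per duplication-deletion library and 23561794 to 78814037 per control library. The libraries numbered 5 were the shallowest of their groups. GU332589, the entry with the most reads, made up 20.6% to 32.6% of each library. The exact intervals of count ratios assume independent molecules and cover counting error only.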

How the data were processed

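Total RNA libraries were made with a strand-preserving kit and sequenced in pairs, per the labels' protocols. The authors deposited expected counts per gene for 28 RNA-seq libraries. RSEM 1.3.0 and STAR 2.6.0c with mm9 are named in the submitters' processing notes, with no role stated. The authors' deposited table of log2 fold changes, p-values and test scores compares mutants with control cells only, and it was used here for the mm9 positions of genes. The Hi-C files were not analysed here.

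Expected counts were rounded, 92 spike-in entries were left out, and genes were kept by edgeR's filter on low counts by group. The 11 NPC libraries were fitted with edgeR 4.0.16 (TMM scaling, robust quasi-likelihood test, group means) in R 4.3.3, with Benjamini-Hochberg adjustment over all genes and a threshold of 0.05. CPM use TMM-scaled library sizes. The same steps were also run on simulated counts with planted changes. That simulation held no deviating library, so it does not show how single libraries move the calls. Alternatives used DESeq2 1.42.0, limma-voom (limma 3.58.1), other scaling, filters and left-out libraries.

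Outside the interval, named genes are the called ones and, up to 12 in each direction, those with the smallest unadjusted p, a mean of at least 2 CPM in the higher group and no overlap; in each list the 2 with the smallest p were eligible. Other genes named were chosen after their values were seen. One gene that the rule names is not reported here. The members and lists were chosen with earlier results of these data known. Floors are 3 counts over a group, and intervals are exact at 95%. Promoter sequences are RefSeq's.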

Additional observations from a re-analysis of the deposited data

Results flagged for a closer look

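The difference between deletion and duplication-deletion cells differed between NPCs and ESCs in 3 genes by an interaction test in edgeR. The effect in NPCs minus that in ESCs was −4.60 on the log2 scale for Zim1, −3.19 for 2210016F16Rik and −6.29 for Gm1564. The values behind them are given with the stages above.

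Nespas stood at 9.24 CPM in control replicate 4, apart from the other 4 control libraries, which held 12.1 to 12.9 CPM. This was 1 of 32 sets of values looked at for a distant library, and chance alone marks about 1 in 20.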

How the results depend on the processing

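The count of 4 genes called was 106 with DESeq2 (24 of the 24 named genes among them), 1 with limma-voom (1 named), 1 with the 6 mutant libraries alone (1 named), 8 with a term for the libraries numbered 5 (7 named), and 3 without those libraries. Leaving out 1 library gave 0 to 8 calls, and 0 to 8 named genes called. Interval genes called were 0 in edgeR and 2 with DESeq2. For the difference from ESCs, 50 genes were called with DESeq2 and 3 to 6 when a library was left out. For the difference from neurons, DESeq2 called 27. Of the 41 lists without the 4 added after the values were seen (Y-linked, germline and both flanks), 20 had a positive median, and 15 to 22 did over the alternatives. The mean percentage of the interval in the deletion libraries was 48.8% to 61.5% when a library was left out. Over 86 genes and 20 alternatives no direction turned: of 1720 values 41 lost a call and 51 gained one. Most of these genes were chosen with their values in these data known, many for a lack of overlap between the groups. A turn of direction was therefore unlikely from the start, and its absence says little about how stable the directions are. The cause of these shifts was not tested.

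Replicate numbers were not taken to pair the libraries, since not every pair correlated above 0.1: the correlation of same-numbered libraries was −0.031 to 0.481 over 7 pairs, above 0.1 in 5, and 5 of 11 libraries correlated best with one of their own number. With the replicate number as a block, 2 genes were called, Rbm46 and Fmr1nb (2 named), and none of Airn, Zim1, 2210016F16Rik and 1700001L05Rik, and 8 in the difference from ESCs. Genes with few reads, such as Airn in the duplication-deletion cells, carry wide intervals.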

Other observations

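Genes of cholesterol synthesis were slightly higher in the deletion cells: 20 of 22 had positive log2 fold changes, where 52.5% of all genes did, with a median of 0.42. Their summed level was 3156 to 3325 CPM in the deletion cells, 1928 to 2694 CPM in the duplication-deletion cells and 2287 to 3107 CPM in the control cells. Hmgcs1, an early enzyme of the pathway, had 718, 678 and 1065 CPM in the deletion cells, against 562, 394 and 504 CPM in the duplication-deletion cells, a log2 fold change of 0.75 ± 0.28 that was not called. Among glycolysis and hypoxia genes the median was 0.39 over 29 genes. The angiogenic factor Vegfa had 44.7, 68.5 and 65.1 CPM in the deletion cells, against 32.7, 38.9 and 29.8 CPM in the duplication-deletion cells, without overlap (log2 fold change 0.81 ± 0.25). Ptch1, the Hedgehog receptor and a target of that pathway, had 101, 224 and 172 CPM in the deletion cells, against 89.7, 99.4 and 53.1 CPM in the duplication-deletion cells (1.04 ± 0.39).

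Some lists depended on the libraries numbered 5. Histone genes had a median of 0.59 over 41 genes, and −0.78 without deletion replicate 5. Proliferation genes had a median of 0.28 over 24 genes, and −0.03 without the 3 libraries numbered 5. Cytosolic ribosomal protein genes had a median of 0.15 over 73 genes and turned negative in 4 of 20 alternatives. None of these genes was called. Stmn2, a neuronal microtubule regulator, had 57.4, 12.4 and 17.3 CPM in the deletion cells, against 63.8, 69.2 and 99.8 CPM in the duplication-deletion cells. It is 1 of 20 pan-neuronal genes tested, of which 4 were positive (52.5% of all genes), with a median of −0.28. Only 1 of the 20 had an unadjusted p below 0.05 in the lower direction (2.6% of all genes). The summed level of the list overlapped, at 822 to 2045 CPM in the deletion cells, against 1223 to 1865 CPM in the duplication-deletion cells. Outside the interval and within 1 Mb of it, 9130019O22Rik had 4.32, 4.17 and 2.27 CPM in the deletion cells, against 9.74, 10.2 and 11.5 CPM in the duplication-deletion cells, a log2 fold change of −1.54 ± 0.32 that was not called.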
